A study of Mus musculus with 6 samples.

Results

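Microglia of mice labelled as non-recovered in a chronic learned helplessness paradigm were compared with microglia of mice that were not helpless in the same paradigm. The cells were those that the authors typed as microglia in the chronic non-recovered library and in the chronic non-helpless library. Barcodes with 20 or more UMIs in the neutrophil genes S100a8, S100a9, Ngp, Camp and Retnlg, or with 50 or more UMIs of Ttr, a choroid plexus gene, were left out, which removed 1 non-recovered and 2 non-helpless barcodes. This left 98 non-recovered and 497 non-helpless microglia, or 595 of the 3005 cells of the series. Live CD45-positive cells had been sorted from hippocampi of mice whose strain is labelled BC57BL/6, and sequenced with a droplet-based 5′ single-cell RNA kit. Every mouse of both groups received 180 inescapable foot shocks of 0.3 mA, was tested in 30 trials of 24 s and was then retested weekly for 3 weeks. The label of the first group says only that the mice had not recovered, and that of the second that they were not learned helpless. Chronic recovered mice, which had been helpless and ceased to be, and mice without shocks are used beside them for levels only. The labels give no age, sex or number of pooled mice. Each group was 1 library, so there is no spread between replicates and no test between groups. All intervals are exact 95% intervals that cover counting error only, since the UMIs of a library come from the same mice and cells.

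Microglia are the resident macrophages of the brain and survey neurons through purinergic and chemokine receptors. They carry the glucocorticoid receptor, a nuclear receptor that stress hormones activate and that turns on genes such as Fkbp5, Tsc22d3, Ddit4 and Per1. The question of the comparison, from the design, is how microglia of mice that did not recover differ from those of mice that met the same shocks without becoming helpless.

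The non-recovered microglia held 286827 UMIs and the non-helpless microglia 2106437 UMIs, with a median of 2491.5 and 4245 UMIs per cell. The 2 libraries shared no barcode and both belonged to the authors' batch 3. All 8 microglial markers were detected in both libraries, and their summed level was 40031 CPM (39302 to 40770) in non-recovered and 47341 CPM (47047 to 47635) in non-helpless microglia. CPM here is a gene's UMI count scaled to the summed UMIs of the microglia of its library. Each of the 98 non-recovered microglia, and all but 1 of the 497 non-helpless microglia, held a UMI of at least 1 gene of a microglial set with P2ry12, Tmem119, Cx3cr1, Siglech, Csf1r and Fcrls among its members. Markers of astrocytes, neurons, T cells, NK cells, monocytes, border macrophages and endothelial cells summed to 0 to 17.4 CPM in non-recovered and 1.42 to 30.9 CPM in non-helpless microglia. B cell markers, of which Cd79a and Ms4a1 were among those at 0 in non-recovered microglia, summed to 188 and 357 CPM. Oligodendrocyte markers, of which Mog and Mobp were among those at 0 in non-recovered microglia, summed to 105 and 135 CPM, and those of choroid plexus and erythrocytes to 3 and 0 UMIs in non-recovered and 30 and 9 UMIs in non-helpless microglia. Cnp, another oligodendrocyte marker, was at 27.9 CPM in non-recovered and 81.7 CPM in non-helpless microglia. The T cell genes Cd3d, Cd3g and Trac were at 0 in both libraries. Neutrophil markers were higher in non-recovered microglia, at 139 CPM (99.6 to 190) against 21.8 CPM (16.0 to 29.1) in non-helpless microglia, and 1 non-recovered barcode held 35% of that library's 40 UMIs. The part of this RNA in the results below was not tested.

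The cells of the 2 libraries were not alike in ribosomal protein mRNA. The median share of ribosomal protein UMIs per cell was 1.41% in non-recovered and 5.38% in non-helpless microglia. Microglia with under 2.5% such UMIs made up 53 of 98 non-recovered cells, or 54.1% (43.7 to 64.2, Clopper-Pearson), and 78 of 497 non-helpless cells, or 15.7% (12.6 to 19.2). They gave 34.1% of the non-recovered and 7.80% of the non-helpless UMIs. The non-recovered cells lay in deposited cluster 1 (41 cells) and cluster 6 (57 cells), and the non-helpless cells in clusters 1 (95 cells), 2 (228), 3 (79) and 5 (95). Cluster 1 was therefore the only cluster with cells of both, and clusters 6 and 3 held nearly all ribosome-poor cells of their libraries (51 of 53 and 72 of 78). Ribosome-poor cells had a median of 1878 UMIs in the non-recovered and 1988 UMIs in the non-helpless library. The other microglia had a median of 4363 and 4512 UMIs. Because the mix of cells moved with the group, values within both kinds of cell are given for the genes the results turn on. Of 44 named genes at least 1.5-fold higher in all microglia, 38 were so in ribosome-rich cells, 36 in ribosome-poor cells and 31 in both. Of 47 named genes at least 1.5-fold lower, 23 were so in ribosome-rich cells, 19 in ribosome-poor cells and 8 in both. Of all measured genes, 21.1% were higher and 8.91% lower in ribosome-rich cells, and 27.7% and 20.3% in ribosome-poor cells. The named genes were chosen partly by ratios in these same cells, so the counts are a description. Ribosome-poor cells held 97768 non-recovered UMIs, and a lower count under 3 was set to 3. Genes of low level therefore could not be called lower there.

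**Figure D1:**
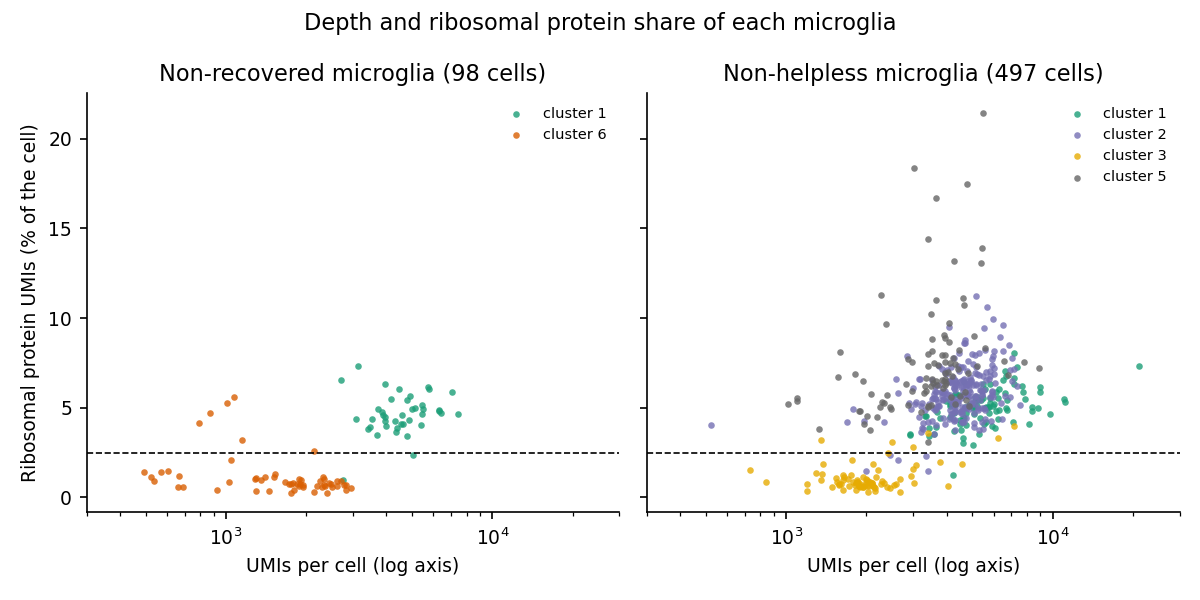
Ribosomal protein UMIs as a percentage of each cell's UMIs (y axis) against UMIs per cell (x axis, log scale), with 1 point per microglia coloured by deposited cluster and the dashed line at 2.5%. Below the line lie 53 of 98 non-recovered cells (left) and 78 of 497 non-helpless cells (right).

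Over the transcriptome, the non-recovered library was the higher of the 2 more often than the lower. Of 32429 gene rows, 4493 had at least 50 CPM in the higher library and were taken as measured. Among these, 1088 genes, or 24.2%, were at least 1.5-fold higher in non-recovered microglia, and 442, or 9.84%, were at least 1.5-fold lower. The median log2 ratio of non-recovered over non-helpless was 0.12. This split depends on the scaling: with median-of-ratios size factors 799 genes were higher and 914 lower, so that higher genes were 46.6% of those past the fold in place of 71.1%, and the median was -0.11. Ratios below are on the scale of total UMIs and are to be read against the 0.12.

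A group of 193 genes ran along the contrast through the whole series. Its rule was a level at least 1.5-fold higher, with 2 CPM added, in each of the non-recovered, acute helpless and batch 3 non-shocked microglia than in each of the non-helpless, recovered and acute non-helpless microglia. All 193 were among the 1088 higher genes by that rule, and 9 of the 12 highest ratios among named genes with at least 30 UMIs in the higher library belonged to the group. The part of this library pattern in the results was not tested, so membership is given with the genes. Among the 1088 higher genes, the level in non-recovered microglia exceeded that in all of recovered, non-shocked batch 3 and non-helpless microglia for 961. The non-helpless level was the lowest of the 4 for 556. Of the 442 lower genes, non-recovered microglia were the lowest of the 4 for 436. These genes were chosen by this contrast, so the counts are a description.

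**Figure D2:**
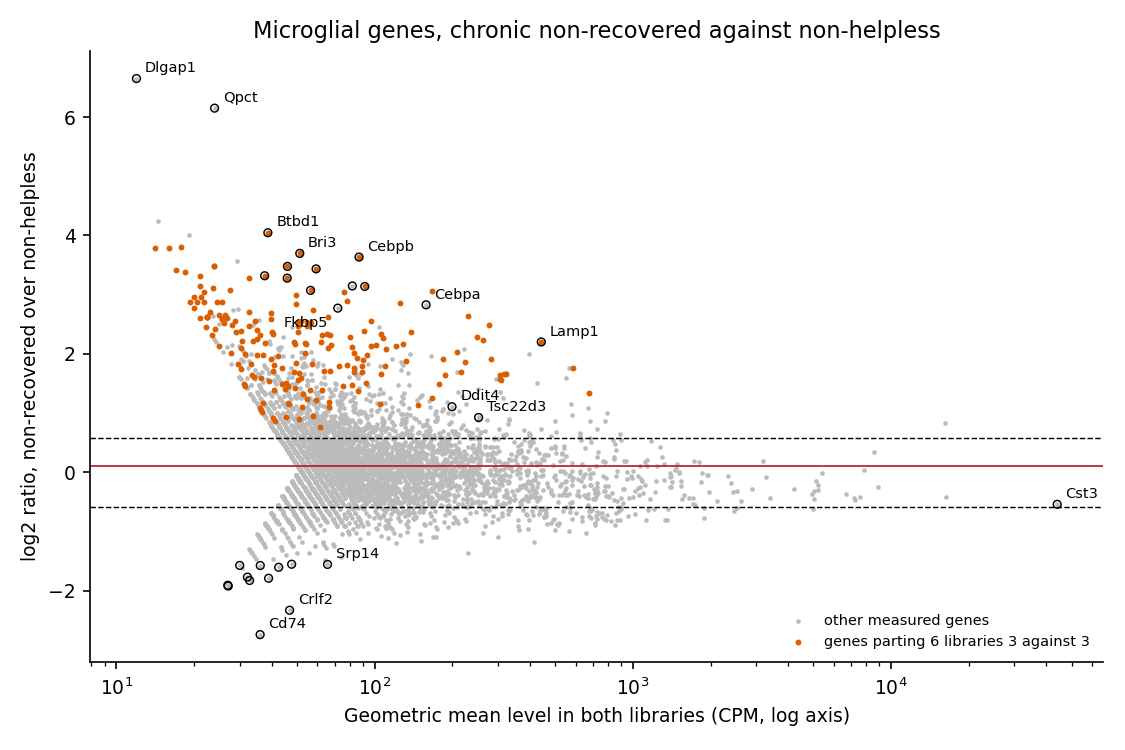
log2 ratio of non-recovered over non-helpless microglia (y axis) against the geometric mean level in CPM (x axis, log scale) for the 4493 measured genes, with dashed lines at 1.5-fold, the red line at the median of 0.12 and circles on genes named in the text. Orange points are the 193 genes that part the 6 libraries 3 against 3, all of which lie above the line of no difference.

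Some genes of the glucocorticoid response list were higher in non-recovered microglia, and others were near no difference. Of 14 measured genes of the 26 in the glucocorticoid response list, 7 were at least 1.5-fold higher and 0 lower, with a median log2 ratio of 0.63, beside 24.2% and 9.84% of all measured genes. With each cell weighted equally the list median was 0.34, beside 0.15 over all genes. These medians were closer than the 0.25 that was required to call a list apart. Fkbp5, a co-chaperone that lowers the hormone affinity of the glucocorticoid receptor and is itself a target of it, had 54 UMIs or 188 CPM (141 to 246) in non-recovered and 58 UMIs or 27.5 CPM (20.9 to 35.6) in non-helpless microglia. It was 6.84-fold higher (4.63 to 10.1), and its UMIs were spread over 38 non-recovered cells with at most 3 in any of them. Per1, a clock gene with glucocorticoid response elements, had 87.2 CPM (56.4 to 129) in non-recovered and 20.4 CPM (14.8 to 27.5) in non-helpless microglia, or 4.27-fold more (2.50 to 7.15). Ddit4, a stress-induced inhibitor of mTORC1, had 293 CPM (234 to 363) in non-recovered and 136 CPM (120 to 153) in non-helpless microglia and was 2.16-fold higher (1.67 to 2.76). Tsc22d3, which encodes the glucocorticoid-induced leucine zipper protein, had 349 CPM (284 to 424) in non-recovered and 183 CPM (165 to 203) in non-helpless microglia and was 1.90-fold higher (1.51 to 2.38). Nr3c1, the glucocorticoid receptor itself, was 1.73-fold higher (1.29 to 2.31), at 209 and 121 CPM. Sult1a1, a sulfotransferase, was 1.66-fold higher (1.16 to 2.32), and the last of the 7 was Cebpb, described below.

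Other genes of the list did not reach the fold. Sgk1, a kinase gene with a hormone-responsive promoter, stood at 1011 CPM (898 to 1134) in non-recovered and 723 CPM (687 to 760) in non-helpless microglia, 1.40-fold higher. Klf2 and Nfkbia were 1.44-fold and 1.25-fold higher, Txnip was at 948 CPM in non-recovered and 946 CPM in non-helpless microglia, and Cebpd and Dusp1 were 1.32-fold and 1.23-fold lower. The list was therefore split between genes with large ratios and genes near no difference.

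The ratios of Fkbp5, Ddit4 and Tsc22d3 were found in both kinds of microglia. In cells with at least 2.5% ribosomal protein UMIs (45 non-recovered and 419 non-helpless cells) they were 5.14-fold (3.04 to 8.46), 2.33-fold (1.74 to 3.07) and 1.89-fold (1.43 to 2.45) higher. In cells under 2.5% (53 non-recovered and 78 non-helpless cells) they were 6.09-fold (2.72 to 15.4), 4.41-fold (1.88 to 11.5) and 2.64-fold (1.48 to 4.80) higher. Within cluster 1 Fkbp5 was 5.24-fold higher (2.69 to 10.6). Per1 behaved otherwise: it was 6.85-fold higher (3.80 to 12.1) in ribosome-rich cells, while ribosome-poor cells held only 3 non-recovered and 10 non-helpless UMIs, a ratio 1.98-fold lower (0.511 to 11.2). Sult1a1 was 1.37-fold higher (0.855 to 2.10) in ribosome-rich cells, under the fold, and had a log2 ratio of 1.68 in ribosome-poor cells. The list as a whole had 7 of 15 measured members at least 1.5-fold higher and 0 lower in ribosome-rich cells, where 21.1% and 8.91% of 4322 genes were. In ribosome-poor cells 8 of 13 were higher and 2 lower, beside 27.7% and 20.3% of 5207 genes.

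Among the libraries of batch 3, non-recovered microglia had the highest level of each of these genes. Fkbp5 was at 188 CPM in non-recovered, 19.2 CPM (13.2 to 26.9) in recovered, 44.7 CPM (35.2 to 56.0) in non-shocked and 27.5 CPM in non-helpless microglia, and the intervals of the last overlapped with those of its neighbours on either side. Ddit4 was at 293, 157, 23.5 and 136 CPM in the same order, and Tsc22d3 at 349, 169, 44.7 and 183 CPM. For these genes the non-shocked library was the lowest, and the intervals of recovered and non-helpless microglia overlapped. Nr3c1 was at 209 CPM (160 to 269) in non-recovered and 200 CPM (179 to 223) in non-shocked microglia, which overlap, and at 137 CPM in recovered and 121 CPM in non-helpless microglia.

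The promoter windows of these genes, from RefSeq on build GRCm38.p6 and each running from 250 bases before the start site to 50 after it, are shown for the letters they hold. The table matched 12 of the 14 measured list genes, with 20 windows. The full glucocorticoid response palindrome, searched on both strands, was in 1 of them, a promoter of Sgk1, and in 3 of all 32851 windows (0.00913%). The E-box CACGTG, also searched on both strands, is the site bound by clock proteins and by factors of the lysosomal regulator family. It was in at least 1 window of Dusp1, Fkbp5, Per1 and Sgk1, or 4 of the 12 matched genes. Of all windows 7.15% held it, a share per window that cannot be set against a count of genes. It starts 169 bases before the start site in Fkbp5 and 166 bases before it in Per1, and the palindrome starts 189 bases before the start site in Sgk1. Lamp1, a gene of the lysosome described below, is added because its window holds 4 E-boxes, the first starting 61 bases before the start site. Capitals mark the palindrome in Sgk1 and the E-boxes in the others, on the gene's own strand; the windows are chr17:28486100-28486399 (minus strand), chr11:69098699-69098998 (plus), chr10:21993640-21993939 (plus) and chr8:13158911-13159210 (plus). A match of letters is not a bound site, and glucocorticoid response elements outside these windows were not searched.
Fkbp5: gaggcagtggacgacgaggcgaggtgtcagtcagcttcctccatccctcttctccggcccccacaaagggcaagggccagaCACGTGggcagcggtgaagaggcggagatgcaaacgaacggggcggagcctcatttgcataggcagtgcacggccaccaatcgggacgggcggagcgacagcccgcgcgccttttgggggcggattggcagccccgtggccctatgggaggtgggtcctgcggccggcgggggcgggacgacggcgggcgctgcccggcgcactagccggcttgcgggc
Per1: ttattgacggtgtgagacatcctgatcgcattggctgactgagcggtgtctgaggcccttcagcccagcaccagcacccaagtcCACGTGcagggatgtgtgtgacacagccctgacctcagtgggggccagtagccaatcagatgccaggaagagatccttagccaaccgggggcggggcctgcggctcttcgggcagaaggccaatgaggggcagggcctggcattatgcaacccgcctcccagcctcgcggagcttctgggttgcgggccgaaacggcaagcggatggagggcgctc
Sgk1: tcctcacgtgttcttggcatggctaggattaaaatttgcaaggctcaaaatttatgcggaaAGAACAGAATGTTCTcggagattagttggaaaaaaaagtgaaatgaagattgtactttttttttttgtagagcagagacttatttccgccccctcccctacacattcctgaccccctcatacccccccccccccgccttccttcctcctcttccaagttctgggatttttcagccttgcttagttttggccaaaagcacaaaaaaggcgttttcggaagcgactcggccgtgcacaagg
Lamp1: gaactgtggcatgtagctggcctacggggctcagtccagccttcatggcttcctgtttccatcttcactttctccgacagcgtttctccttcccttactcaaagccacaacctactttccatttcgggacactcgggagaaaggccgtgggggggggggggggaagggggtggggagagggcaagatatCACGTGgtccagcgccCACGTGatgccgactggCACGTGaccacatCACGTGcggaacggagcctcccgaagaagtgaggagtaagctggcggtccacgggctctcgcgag

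**Figure D3:**
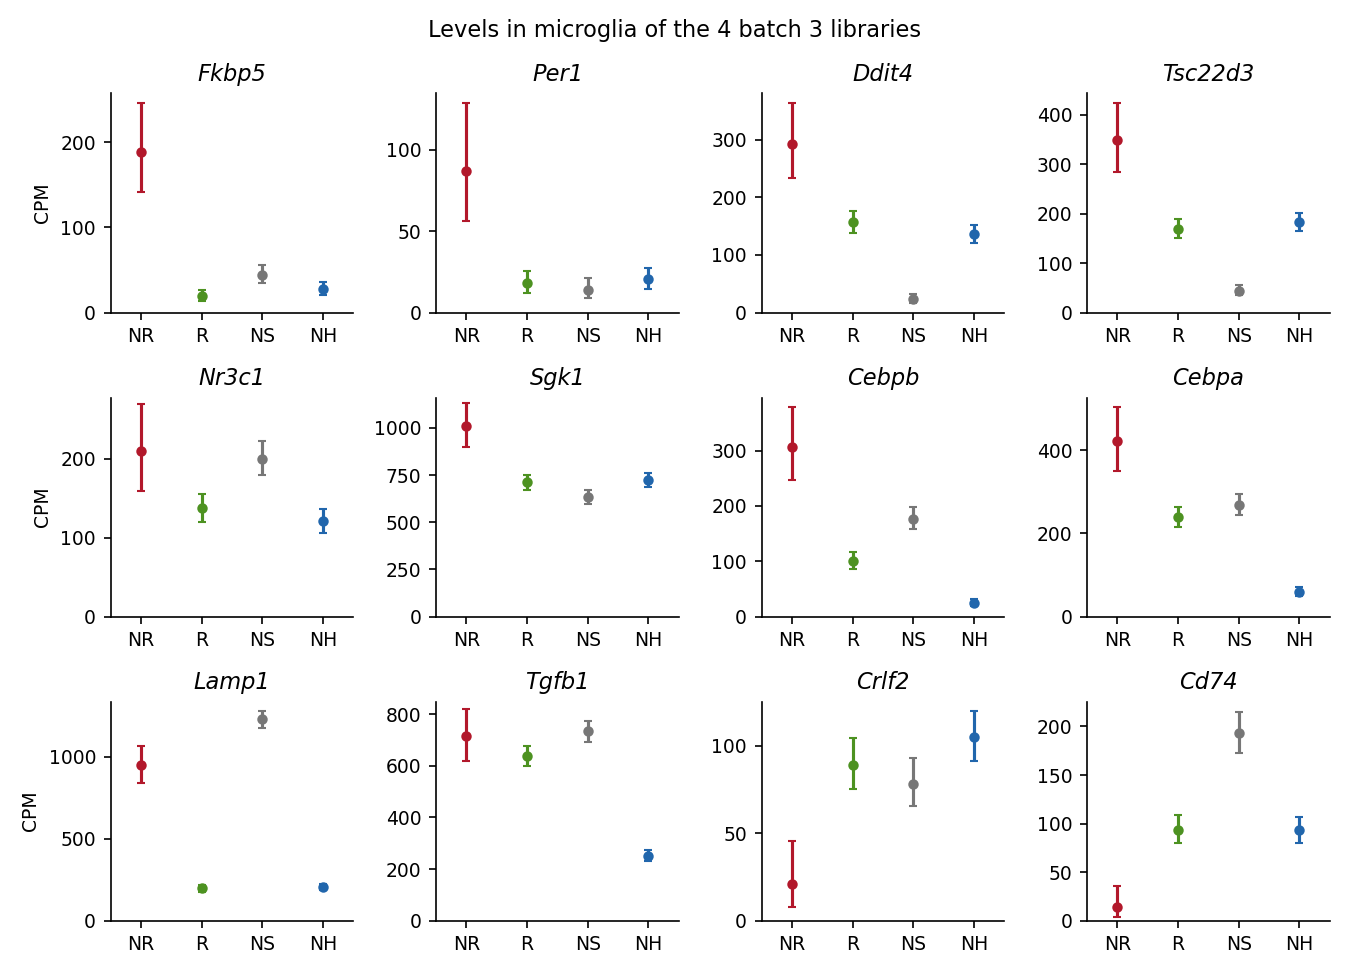
Level in CPM (y axis, from 0) of 12 genes in summed microglia of the 4 batch 3 libraries, non-recovered (NR), recovered (R), non-shocked (NS) and non-helpless (NH), with 1 point per library and bars for the exact 95% Poisson interval. Fkbp5, Per1, Ddit4 and Tsc22d3 are highest in NR, while Cebpa and Tgfb1 are lowest in NH and Lamp1 is high in NR and NS.

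Of the C/EBP family, Cebpa, Cebpb and Cebpg were higher in non-recovered microglia. Of 24 measured transcription factors of the myeloid list, 7 were at least 1.5-fold higher and 0 lower, near the 24.2% and 9.84% of all measured genes, with a median of 0.22 beside 0.12. In ribosome-poor cells 7 of 25 were higher and 3 lower, beside 27.7% and 20.3% of all genes, and the list median of 0.049 lay under the 0.071 of all genes. Cebpb, a C/EBP factor of inflammatory and stress responses, had 88 UMIs or 307 CPM (246 to 378) in non-recovered and 52 UMIs or 24.7 CPM (18.4 to 32.4) in non-helpless microglia. It was 12.4-fold higher (8.72 to 17.9). Cebpa, the C/EBP factor of myeloid differentiation, was 7.11-fold higher (5.49 to 9.20), at 422 and 59.3 CPM, and Cebpg 4.39-fold higher (3.12 to 6.14). Cebpd was at 244 CPM in non-recovered and 321 CPM in non-helpless microglia, so the family did not move as one. Mef2a and Runx1, factors of microglial identity, were 2.23-fold (1.92 to 2.57) and 1.84-fold (1.48 to 2.29) higher, but in ribosome-rich cells Runx1 was 1.15-fold higher (0.806 to 1.59). Tfeb, a regulator of lysosomal genes, was 2.62-fold (1.60 to 4.14) and Smad3, a transducer of TGF-beta signals, 2.05-fold (1.16 to 3.45) higher. Smad3 was at 12 against 21 UMIs in ribosome-poor cells, 1.04-fold lower (0.489 to 2.32). The identity factors Spi1, Irf8, Sall1 and Mef2c lay within 1.5-fold, Irf8 at 561 CPM in non-recovered and 579 CPM in non-helpless microglia.

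The C/EBP ratios were also found within both kinds of cell. Cebpa was 7.86-fold higher (5.91 to 10.4) in ribosome-rich and 8.40-fold higher (3.44 to 24.7) in ribosome-poor microglia. Cebpb was 13.8-fold higher (9.52 to 20.2) in ribosome-rich cells and at least 10.1-fold higher in ribosome-poor cells, where 18 non-recovered UMIs stood against 0 and the bound takes 3 counts for the non-helpless sum. Cebpb and Cebpg belonged to the 193 genes that part the libraries 3 against 3, and Cebpa did not. In the other batch 3 libraries Cebpb was at 101 CPM in recovered and 177 CPM in non-shocked microglia, and Cebpa at 239 and 268 CPM. For both genes the non-helpless library was the lowest of the 4.

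Tgfb1 and some receptor genes were also lowest in the non-helpless library. Tgfb1, the cytokine that maintains the microglial state, had 715 CPM (620 to 820) in non-recovered and 252 CPM (231 to 275) in non-helpless microglia and was 2.84-fold higher (2.40 to 3.34). It stood at 637 CPM in recovered and 733 CPM in non-shocked microglia, so the non-helpless library was the one apart. Among 25 measured cytokine and growth factor receptors, 5 were at least 1.5-fold higher and 1 lower, beside 24.2% and 9.84% of all measured genes, with a median of 0.20, so the receptors as a list were not apart from all genes. Il17ra, a receptor for interleukin 17, was 3.49-fold higher (2.49 to 4.83), Il6ra, the interleukin 6 receptor, 3.18-fold higher (2.63 to 3.84), and Ifngr2, a chain of the interferon gamma receptor, 2.57-fold higher (2.02 to 3.25). These 3 were lowest in the non-helpless library among the 4 of batch 3, and of them Il6ra was one of the 193 genes. Il6st, the signalling chain shared by interleukin 6 family receptors, and Csf2ra, a chain of the GM-CSF receptor, were 1.66-fold and 1.62-fold higher. Neither held in both kinds of cell: Il6st was 1.39-fold higher (0.993 to 1.90) in ribosome-rich and 1.07-fold higher (0.724 to 1.56) in ribosome-poor cells, and Csf2ra was 1.15-fold higher (0.761 to 1.68) in ribosome-rich cells. Csf1r, the receptor on which microglial survival depends, was at 7963 CPM in non-recovered and 7750 CPM in non-helpless microglia. The one lower receptor, Crlf2, is given below.

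Lamp1, a major glycoprotein of the lysosomal membrane, was 4.60-fold higher (3.94 to 5.37), at 948 CPM (839 to 1068) in non-recovered and 206 CPM (187 to 226) in non-helpless microglia. It was at 198 CPM in recovered and 1228 CPM in non-shocked microglia, and was one of the 193 genes. Of 30 measured lysosomal and protease genes only Lamp1, Mcoln1 (2.91-fold, 1.61 to 5.04) and Tfeb were at least 1.5-fold higher, and of the proteases Ctsl was 1.55-fold (1.36 to 1.76) and Ctsz 1.53-fold (1.37 to 1.73) lower. Mcoln1 was also one of the 193 genes, and Tfeb was not. The list median was -0.22, and Ctsd and Ctsb were 1.19-fold and 1.13-fold lower. Of all measured genes, 24.2% were higher and 9.84% lower. The lysosomal list as a whole was therefore not higher.

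The 2 largest ratios belonged to genes at or near 0 in non-helpless microglia. Dlgap1, a postsynaptic scaffold gene, had 41 UMIs in 28 non-recovered cells and 0 in non-helpless microglia, at least 100-fold higher with the non-helpless sum set to 3 counts. Qpct, a glutaminyl cyclase gene on the same chromosome, had 58 UMIs against 6 and was 71.0-fold higher (30.7 to 201). Dlgap1 was at 23.8 CPM in recovered, 0 CPM in non-shocked batch 3, 0 CPM in acute helpless and 201 CPM in acute non-helpless microglia. Qpct was at 56.4, 1.77, 5.16 and 445 CPM in the same order, so both were highest in a library of mice that were not helpless. Crlf2, the receptor for thymic stromal lymphopoietin, ran the other way, with 6 UMIs or 20.9 CPM (7.68 to 45.5) in non-recovered and 221 UMIs or 105 CPM (91.5 to 120) in non-helpless microglia, 5.02-fold lower (2.27 to 13.8). It was at 88.9 CPM in recovered, 78.3 CPM in non-shocked batch 3, 103 CPM in acute helpless and 11.9 CPM in acute non-helpless microglia.

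The other genes among these 12 highest ratios were Btbd1, Bri3, Galnt12, Smap1, Zfand3, Elavl1, Slc8a1, Iscu and Arf5, from 16.5-fold (9.56 to 29.5) for Btbd1 to 8.42-fold (5.42 to 13.1) for Arf5. Slc8a1, a sodium and calcium exchanger, was 8.86-fold higher (6.17 to 12.8) and was, with Dlgap1 and Qpct, outside the 193 genes. The other 12, with the lowest ratios, were Cd74, Crlf2, Prdx4, Nipsnap3b, Mrpl12, Chrac1, Nr2c2ap, Ndufb3, Smim26, Psmd9, Srp14 and Cnp. Apart from Cd74 and Crlf2 they were 2.93-fold to 3.78-fold lower, each with 4 to 11 non-recovered UMIs, and their levels in recovered and non-shocked microglia were all above the non-recovered level. Within the kinds of cell many of these counts were small. Bri3 was 18.7-fold higher (11.6 to 30.8) in ribosome-rich cells and had 2 against 2 UMIs in ribosome-poor cells, while Slc8a1 was 5.02-fold (2.83 to 8.64) and 5.49-fold (3.03 to 10.5) higher. Prdx4 and Nipsnap3b had 4 against 104 UMIs each in ribosome-rich cells, 2.53-fold lower (0.959 to 9.46), and 0 against 7 and 0 against 6 UMIs in ribosome-poor cells. Mrpl12 and Ndufb3 encode mitochondrial proteins and Srp14 a part of the signal recognition particle, and Cnp is one of the oligodendrocyte markers given above.

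Immediate early genes differed gene by gene. Of 17 measured, 3 were at least 1.5-fold higher and 0 lower, with a median of -0.02. Of all measured genes, 24.2% were higher and 9.84% lower, so the list was not higher as a whole. Jund, an AP-1 subunit, was 3.90-fold higher (3.00 to 5.04), at 328 CPM in non-recovered and 84.0 CPM in non-helpless microglia. Egr1, an immediate early transcription factor, was 3.22-fold higher (2.54 to 4.06), at 373 and 116 CPM, and 24 of its 107 non-recovered UMIs came from 1 of 29 barcodes. Without the barcode with the most UMIs in each library it was 2.61-fold higher. Egr2 was 18.9-fold higher (7.53 to 53.5) on 18 against 7 UMIs, but 16 of the 18 lay in 1 barcode, and 2 against 6 UMIs were left without the highest barcode of each library. Fos, Jun, Junb and Ier5 were at lower levels, 1.42-fold, 1.18-fold, 1.34-fold and 1.31-fold, all within the 1.5-fold limit.

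The chemokine ratios rested on few cells. Ccl4 and Ccl3, chemokines that attract leukocytes, were 2.09-fold (1.60 to 2.71) and 1.90-fold (1.29 to 2.74) higher, with 76 against 267 and 37 against 143 UMIs. The 76 Ccl4 UMIs came from 5 non-recovered cells, 47 of them from 1 cell, and 1 non-helpless cell held 178 of the 267. Without the highest barcode of each library, Ccl4 was 2.45-fold and Ccl3 1.99-fold higher, on 29 against 89 and 13 against 49 UMIs. Within cluster 1 they were 9.81-fold (5.80 to 17.3) and 14.6-fold (6.37 to 38.8) higher, on 64 against 19 and 35 against 7 UMIs. Ccl12 was 1.97-fold lower (1.07 to 4.02), and Cxcl16, on 12 against 138 UMIs, 1.57-fold lower (0.868 to 3.10). Of 8 measured chemokines and cytokines 3 were higher and 2 lower, with a median of -0.03. Of 11 NF-kB genes, Tnfaip3 was 2.29-fold (1.40 to 3.64) and Rela 1.57-fold (1.12 to 2.15) higher, and Nfkbiz 2.54-fold lower (1.13 to 7.07), with a median of -0.03. Beside both lists, 24.2% of all measured genes were higher and 9.84% lower, with a median of 0.12. Nfkbiz had 6 against 112 UMIs in all microglia. In ribosome-rich cells Rela was 1.74-fold higher (1.18 to 2.48), Tnfaip3 1.74-fold higher (0.857 to 3.225) and Nfkbiz 1.64-fold lower (0.674 to 5.17). The 5 measured interferon-stimulated genes lay within 1.5-fold.

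Some antigen presentation genes were lower in non-recovered microglia, and for the class I list the direction of the median depended on the cells compared. Of 6 measured MHC class II genes 3 were at least 1.5-fold lower and 0 higher, with a median of -0.54, beside 9.84% of all measured genes lower. In ribosome-rich cells 2 of 6 were lower and 0 higher, with a median of -0.34, beside 8.91% of all genes lower there. In ribosome-poor cells 2 of 4 were lower and 0 higher, beside 20.3% of all genes lower. Cd74, the invariant chain, had 4 UMIs or 13.9 CPM (3.80 to 35.7) in non-recovered and 196 UMIs or 93.05 CPM (80.5 to 107) in non-helpless microglia, 6.67-fold lower (2.56 to 24.7). A single non-helpless cell held 96 of the 196 UMIs, and without the highest barcodes the ratio was 4.52-fold lower. In cluster 1, with 2 non-recovered and 5 non-helpless UMIs, Cd74 was 1.16-fold higher (0.111 to 7.12). H2-Oa and H2-DMb1, which act in peptide loading, were 2.06-fold (1.01 to 4.88) and 1.61-fold (1.12 to 2.39) lower.

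Of 17 MHC class I genes 3 were at least 1.5-fold lower and 0 higher, with a median of -0.26. Of all measured genes, 9.84% were lower and 24.2% higher. In ribosome-poor cells 3 of 16 were higher and 1 lower, beside 27.7% and 20.3% of all genes, and the median was 0.15. B2m, the shared light chain, was at 492 CPM in non-recovered and 829 CPM in non-helpless microglia, 1.69-fold lower (1.42 to 2.02). H2-D1, a heavy chain, was 1.56-fold lower (1.25 to 1.96) and Psme2, a proteasome activator subunit, 1.92-fold lower (1.23 to 3.15). In ribosome-rich cells B2m and H2-D1 were 1.36-fold (1.13 to 1.65) and 1.74-fold (1.32 to 2.35) lower. In ribosome-poor cells H2-D1 was 1.12-fold higher (0.704 to 1.76).

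Abundant microglial transcripts were lower by smaller ratios. Disease-associated microglia genes, a programme seen near amyloid plaques, had 7 of 17 measured members at least 1.5-fold lower and 0 higher, beside 9.84% and 24.2% of all measured genes, with a median of -0.49. Cd9 was 1.63-fold (1.42 to 1.87), Ccl6 1.56-fold (1.14 to 2.17), Tyrobp, the adaptor of Trem2, 1.52-fold (1.38 to 1.68) and Lpl, on 10 against 133 UMIs, 1.81-fold (0.955 to 3.86) lower, with B2m, Ctsl and Ctsz as the other members. In ribosome-rich cells 0 of the 17 were 1.5-fold apart in either direction and the median was -0.25, while ribosome-poor cells had 6 of 15 lower and 1 higher, beside 20.3% and 27.7% of all genes there, and a median of -0.51. Complement and Fc receptor genes had 0 of 14 members past the fold and a median of -0.32, with C1qa and C1qb 1.33-fold (1.27 to 1.40) and 1.39-fold (1.32 to 1.46) lower. The 30 homeostatic genes of microglia, all measured, had a list median of -0.18, of which Mef2a was past the fold upward and Crybb1 (1.78-fold, 1.37 to 2.35) downward. P2ry12 was 1.29-fold lower (1.22 to 1.35), and Cx3cr1 was at 5387 CPM in non-recovered and 5394 CPM in non-helpless microglia. Cst3, a protease inhibitor of the cystatin family, was at 36517 CPM in non-recovered and 53040 CPM in non-helpless microglia, 1.45-fold lower (1.42 to 1.48). It was 1.16-fold lower in ribosome-rich and 1.61-fold lower in ribosome-poor cells.

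Nuclear genes of oxidative phosphorylation were lower in all microglia, and their list median was nearer 0 within either kind of cell. Of 28 nuclear genes of oxidative phosphorylation 11 were at least 1.5-fold lower and 0 higher, beside 9.84% of all measured genes lower, with a median of -0.50. Cox4i1, a subunit of cytochrome c oxidase, was 2.03-fold lower (1.54 to 2.74), at 185 CPM in non-recovered and 376 CPM in non-helpless microglia, and Cox6c and Atp5e were 2.09-fold (1.35 to 3.43) and 1.89-fold (1.35 to 2.74) lower. In ribosome-rich cells 3 of 27 were lower, near the 8.91% of all genes there, and the median was -0.18. In ribosome-poor cells 5 of 18 were lower and 3 higher, beside 20.3% and 27.7% of all genes, and the median was -0.20. In cluster 1, 2 of 28 were lower and the median was -0.09, beside 10.9% of 4400 genes lower there. The 12 measured mitochondrially encoded genes had a median of 0.05 in all microglia and -0.29 in ribosome-rich cells. In all microglia only Atp8 (mt-Atp8) was past the fold, 1.57-fold higher (1.27 to 1.92). In ribosome-rich cells it was 1.13-fold higher, on 54 against 489 UMIs. The only member past the fold there was mt-Nd1, which was lower, with a log2 ratio of -0.61. Of 14 glycolysis and hypoxia genes 4 were lower, Ldha (1.84-fold, 1.29 to 2.71), Eno1, Pgam1 and Aldoa (each 1.55-fold), and Pdk1, which restrains pyruvate entry into mitochondria, was 4.05-fold higher (2.79 to 5.83). Of all measured genes 9.84% were lower and 24.2% higher. That glycolysis list had a median of -0.44 in all microglia and of 0.23 in ribosome-poor cells. There 3 of 13 were higher and 2 lower, not above the 27.7% and 20.3% of all genes in those cells. Heat shock genes had a median of -0.29 over 16 members, with Hspe1 and Hspa9 1.68-fold (1.17 to 2.49) and 1.65-fold (0.976 to 3.01) lower.

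Purinergic and neurotransmitter sensing genes were not apart from all genes as a list. Adrb1, the beta-1 adrenergic receptor, was 4.17-fold higher (2.45 to 6.97), on 25 against 44 UMIs, and Gabbr1, a subunit of the GABA-B receptor, 2.15-fold higher (1.39 to 3.23), though 1.45-fold (0.745 to 2.61) in ribosome-rich cells. Of the 13 measured genes of the list, Adrb1, Gabbr1 and Csf2ra were past the fold upward and 0 downward. That was near the 24.2% of all measured genes, and the median was -0.06 beside 0.12. Csf2ra, the GM-CSF receptor chain given above, was on this list as well as on the receptor list. Of 8 lipid and cholesterol genes the exporter Abcg1 was 1.79-fold higher (1.16 to 2.69) and Lpl lower. Of 4 proliferation genes measured, 3 were at least 1.5-fold lower and 0 higher, beside 9.84% and 24.2% of all measured genes. H2afz, a histone, Tubb5 and Mcm3 were 1.89-fold (1.37 to 2.67), 1.67-fold (1.30 to 2.16) and 1.79-fold lower. Mcm3 had 9 against 118 UMIs, and its interval included no difference. In ribosome-rich cells 2 of 4 were lower, beside 8.91% of all genes there. In ribosome-poor cells the log2 ratios were -0.67 for H2afz, 0.26 for Tubb5 and 1.16 for Mcm3, the last on 4 against 1 UMIs. Per1 and Bhlhe41 were the 2 measured clock genes, and Bhlhe41 was at 112 CPM in non-recovered and 80.2 CPM in non-helpless microglia.

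**Figure D4:**
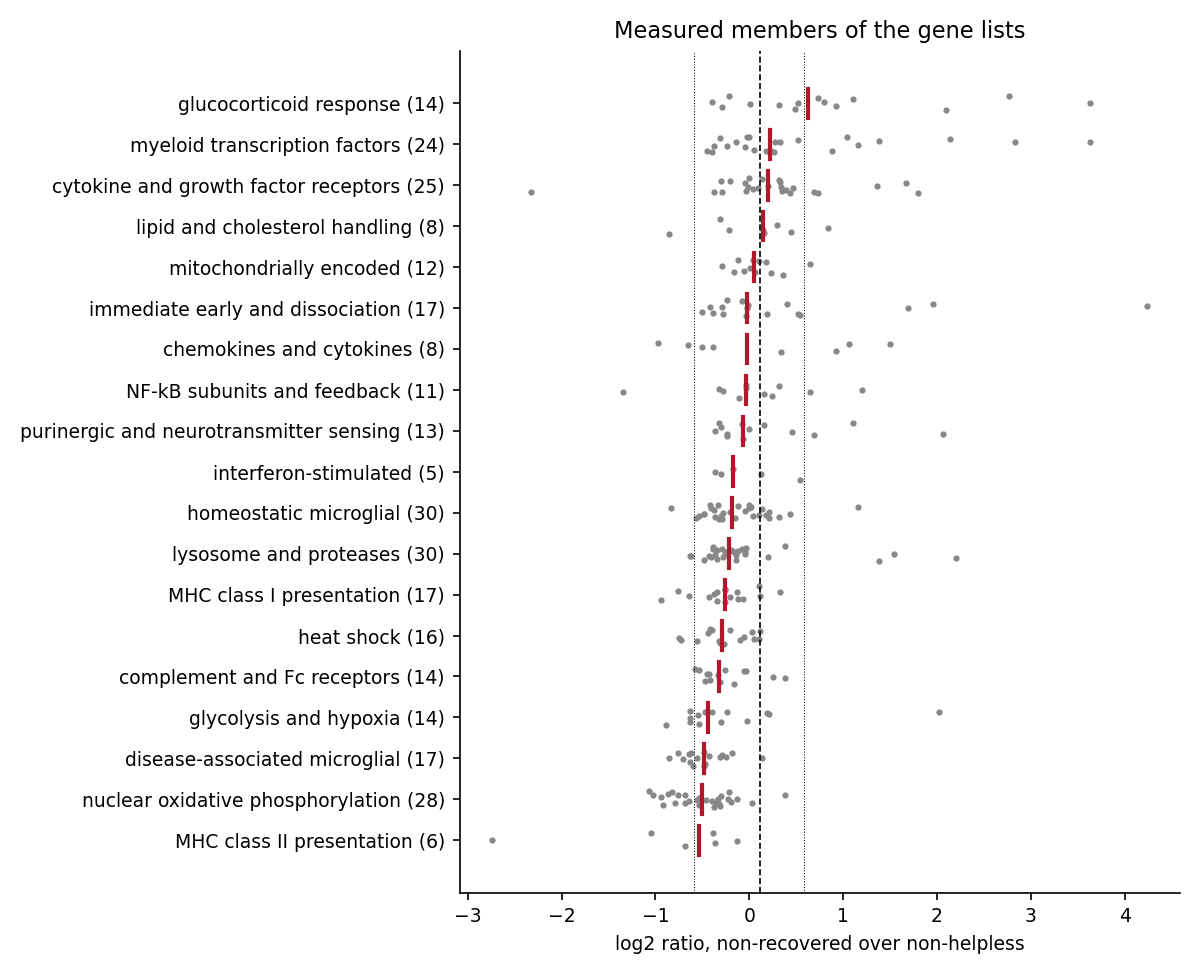
log2 ratio of non-recovered over non-helpless microglia (x axis) for the measured members of each gene list (1 grey point per gene, number measured in brackets), with the list median as a red bar, the median of all measured genes (0.12) as a dashed line and 1.5-fold as dotted lines. The glucocorticoid response list has the highest median (0.63) and MHC class II presentation the lowest (-0.54).

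Splitting the cells by ribosomal protein share separated these groups. Fkbp5, Ddit4, Tsc22d3, Cebpa, Lamp1 and Tgfb1 kept intervals above no difference in both kinds of microglia, with Lamp1 at 5.11-fold (4.31 to 6.05) and 6.07-fold (3.56 to 10.9) and Tgfb1 at 2.96-fold (2.44 to 3.57) and 2.79-fold (1.83 to 4.28) higher. Crlf2 was 3.80-fold (1.60 to 11.8) and 15.5-fold (2.54 to 634) lower, the second on 1 non-recovered UMI. Egr1 was 3.64-fold higher (2.75 to 4.78) in ribosome-rich and stood at 348 and 231 CPM in ribosome-poor cells, and whether these ratios differ was not tested.

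**Figure D5:**
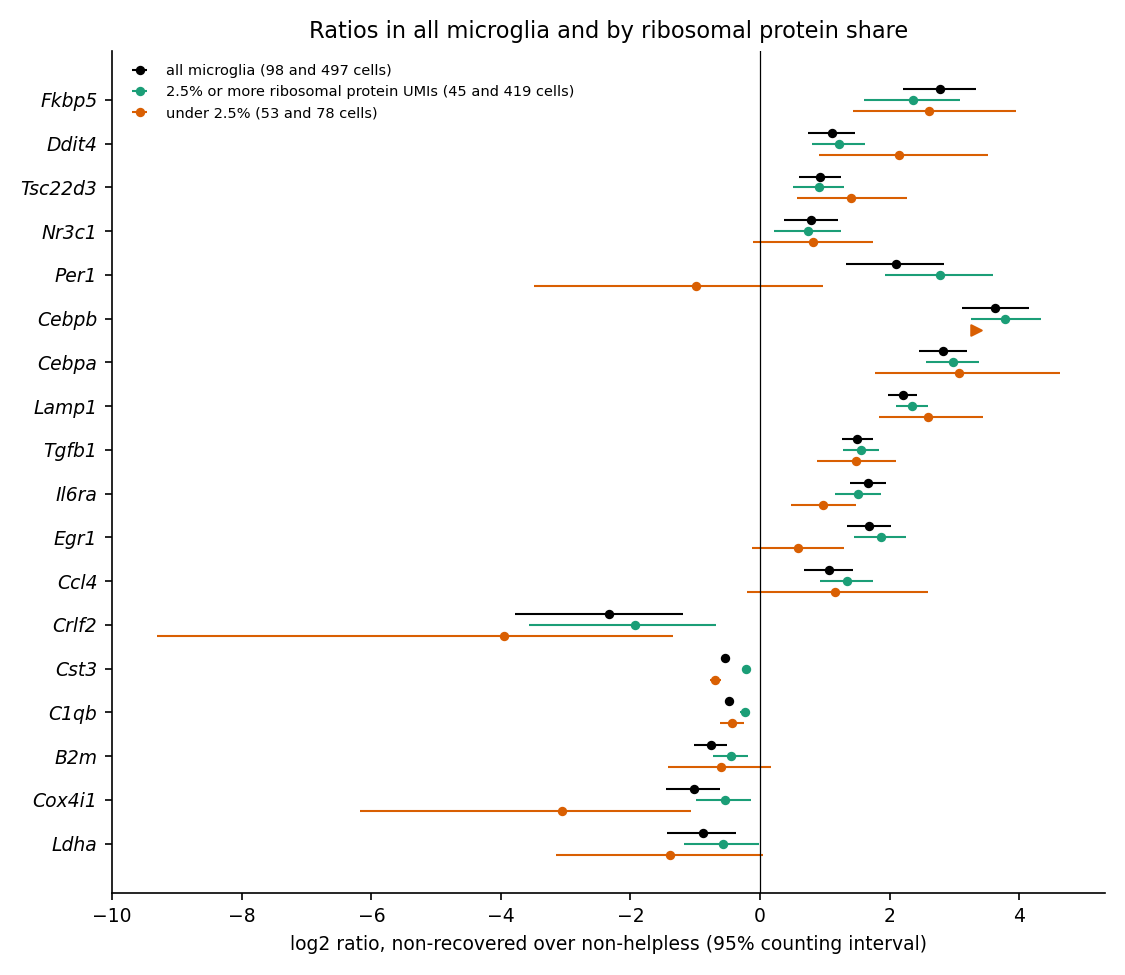
log2 ratio of non-recovered over non-helpless microglia (x axis) for 18 genes in all microglia, in cells with 2.5% or more ribosomal protein UMIs and in cells under 2.5%, with bars for the exact 95% counting interval and a triangle for a lower bound. Fkbp5, Cebpa, Lamp1 and Tgfb1 lie right of 0 in all 3 sets, Crlf2 lies left of 0 in all 3, and Per1 lies on different sides.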

How the data were processed

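The analysis used the deposited raw UMI counts per gene and cell of the chronic and other libraries, and the deposited metadata, whose batch, cluster and cell type columns were used unchanged, per the file headers. Summed UMIs matched the deposited total of each of 3005 cells. Per the labels' protocols, hippocampi were dissected without meninges and choroid plexus, cells were enriched on Percoll and sorted. Reads had been processed with Cell Ranger 2.2.0 and Seurat 2.3.4 on build mm10, per the submitters' processing notes. The cell filters, the typing and the meaning of a batch are not given. Normalized matrices were not used here.

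Raw UMIs were summed over the microglia of each library and scaled to CPM of that sum. Levels have exact Poisson and ratios conditional exact 95% intervals. In log2 ratios and their medians a lower count under 3 was set to 3, while folds use the counts themselves, or a bound at 3 counts for a 0. With 1 library a side no test was made. A gene was measured at 50 CPM in the higher library. Named genes were the 12 highest and 12 lowest ratios with at least 30 UMIs in the higher library (mitochondrial, ribosomal protein, haemoglobin, immunoglobulin, T cell receptor, unnamed, Xist and Y-linked genes left out), list members at least 1.5-fold apart, and the 2 most abundant of each list. Other list members are given by their values, and the promoter windows were chosen after values were seen. The cells and the 21 lists were chosen with earlier results of these data known. A list median is given from 5 measured members. Doublets were kept; Scrublet (scanpy 1.11.5, 20 components) called 4 non-recovered and 7 non-helpless microglia. Ratio functions were tested on simulated counts. Python 3.11.15, numpy 2.4.6 and scipy 1.17.1 were used.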

Additional observations from a re-analysis of the deposited data

How the results depend on the processing

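The fold, the level minimum and the scaling moved the counts of genes. Higher genes numbered 2052 at a minimum of 20 CPM, 451 at 100 CPM, 2601 with only 3 UMIs required and 559 at a fold of 2, beside 1088. Lower genes numbered 898, 237, 1030 and 78 under these settings, beside 442, and 914 with median-of-ratios size factors, 742 with each cell weighted equally, 904 with cells thinned to 1000 UMIs and 1059 in ribosome-poor cells, a setting chosen after seeing the data. In cells with at least 2.5% ribosomal protein UMIs the interferon-stimulated list had a median of 0.12. In ribosome-poor cells the MHC class I list had 0.15 and the glycolysis and hypoxia list 0.23. Among named genes at least 1.5-fold apart in all microglia, log2 ratios changed sign for H2afz (0.34) with the neutrophil and Ttr barcodes kept, and in cluster 1 for Cd74 (0.22), Cxcl16 (0.13) and Lpl (0.54). They did so in ribosome-poor cells for Per1 (-0.99), Smad3 (-0.058), Hspe1 (0.071), H2-D1 (0.16), Ccl6 (0.53), Aldoa (0.23), Pgam1 (0.60), Atp5e (1.16), Mcm3 (1.16) and Tubb5 (0.26). Ribosome-poor cells held 97768 non-recovered and 164335 non-helpless UMIs. Even in all microglia Mcm3 had 9 and Smad3 19 non-recovered UMIs, so several of these sign changes rest on small counts. The cause was not tested. With non-helpless cells reweighted to the ribosome-poor share of the non-recovered library, a setting also added after seeing the data, 790 genes were higher and 360 lower. Under the planned settings, 1185 log2 ratios of named genes stayed within the counting interval of the main ratio, 164 moved beyond it and 4 of genes past the fold changed sign; sign changes of genes within 1.5-fold are not counted apart. No paired analysis was possible because each group is 1 library. No library could be left out for the same reason. The 286827 UMIs of the 98 non-recovered cells limit the precision.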

Other observations

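Families of genes grouped by symbol, chosen after the data were seen, added to the groups above. Cytosolic ribosomal protein genes summed to 34564 CPM in non-recovered and 57119 CPM in non-helpless microglia, and 65 of 81 measured members were at least 1.5-fold lower, beside 9.84% of all measured genes. In cells with at least 2.5% ribosomal protein UMIs, a limit set on these same genes, they summed to 48043 and 61079 CPM, with 6 of 81 lower. Complex I subunits were lower for 15 of 38 measured members in all microglia and for 9 of 37 in ribosome-rich cells, where 3 were higher. Proteasome subunits were lower for 11 of 38 in all microglia and for 3 of 38 in ribosome-rich cells. Beside both families, 9.84% of all measured genes were lower in all microglia. In ribosome-rich cells 8.91% of genes were lower and 21.1% higher. The proteasome count was near that share there, and the complex I count was above it.

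Other families were near all measured genes. Of 26 measured Rab GTPases, which direct vesicle traffic, 8 were at least 1.5-fold higher and 0 lower, beside 24.2% and 9.84% of all measured genes, and their median log2 ratio of 0.099 lay under the 0.12 of all genes. Of 64 measured solute carriers 13 were higher and 3 lower, with a median of 0.17. Subunits of the lysosomal proton pump summed to 3591 CPM in non-recovered and 3918 CPM in non-helpless microglia, with 0 of 16 higher, 3 lower and a median of -0.072.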
